A study of Mus musculus with 6 samples.

Results

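Levels of 9 genes of the endothelial response to blood flow and of the cerebral cavernous malformation (CCM) complex were described in whole hearts of mouse embryos. They are Klf2, Klf4, Nos3, Heg1, Krit1, Ccm2, Pdcd10, Map3k3 and Piezo1. Each was taken by its symbol from the deposited table, in which they make up 9 of 38918 genes. All 9 passed the filter for testing, which asked for 1 FPKM or more on average over the 6 libraries. FPKM, the number of fragments scaled to transcript length and to the mapped fragments of the library, allows levels of different genes to be set side by side.

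Endothelial cells sense the drag of flowing blood through junctional receptors and ion channels, among them the stretch-gated cation channel PIEZO1. A kinase cascade led by MEKK3, the product of Map3k3, passes through MEK5 and ERK5 to MEF2 factors, which switch on the zinc finger transcription factor genes Klf2 and Klf4. These in turn raise Nos3, which encodes endothelial nitric oxide synthase. The CCM complex of KRIT1, CCM2 and PDCD10, bound to the membrane receptor HEG1, holds MEKK3 in check, and in the mouse endocardium its loss raises Klf2 and Klf4 and thins the cardiac jelly.

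The hearts came from embryos of C57/BL6 background at embryonic day 11.5. The conditional knockout embryos carried 2 floxed alleles of Tie2 (gene symbol Tek, the angiopoietin receptor) and Cre recombinase from Nfatc1, a gene active in the endocardium, and are labelled Nfatc1Cre:Tie2 flox/flox. The control embryos were littermates labelled Tie2 flox/wild-type, so that both groups carried a floxed allele, and the labels leave the Cre status of controls unstated. The labels describe RNA of 18 hearts per genotype, combined and then divided into 3 portions. The levels of Xist and Afp given next differ more between libraries of 1 genotype than portions of 1 mixed pool could. The number of hearts in each library is thus not known, and n = 3 counts libraries and not embryos. The title of the series names sprouting of the endocardium and trabeculation as its subjects, and the comparison asks which heart transcripts differ when Tie2 is lost from the endocardial lineage.

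Summed FPKM lay between 531209 and 582261 in conditional knockout libraries and between 481334 and 534409 in control libraries, and depth is unknown. Tek stood at 3.38, 3.13 and 3.13 FPKM in conditional knockout libraries, against 22.4, 25.7 and 16.6 FPKM in controls, which fits the labels of all 6 libraries. Libraries of 1 genotype also differed from each other. Xist, the transcript of the inactive X chromosome in female cells, stood at 32.9, 0.0295 and 0.0324 FPKM in conditional knockout replicates 1, 2 and 3, against 9.0, 40.7 and 0.0171 FPKM in control replicates 1, 2 and 3. Afp, a gene of fetal liver, stood at 2.2, 123 and 0.249 FPKM in conditional knockout replicates 1, 2 and 3, against 51.5, 11.2 and 15.7 FPKM in control replicates 1, 2 and 3. The defining markers of heart muscle, endothelium and endocardium were all above 0.

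The stretches upstream of Klf2 and Klf4 are shown because both genes are the transcriptional readout of the cascade through MEF2. RefSeq's promoter table (GRCm38), which spans 250 bases before to 50 after each start, held 8 of the 9 members, and Nos3 was not among them. The bases printed end before the first annotated start. Both strands were searched for CTA and TAG with any 4 bases between them, the outline of the sequence bound by MEF2 proteins, and capitals mark its match in Klf2, CTAAATTTAG, which reads the same on both strands. The Klf2 stretch is chr8:72318812-72319032 on the plus strand and the Klf4 stretch is chr4:55532476-55532725 on the minus strand, both on GRCm38.
Klf2: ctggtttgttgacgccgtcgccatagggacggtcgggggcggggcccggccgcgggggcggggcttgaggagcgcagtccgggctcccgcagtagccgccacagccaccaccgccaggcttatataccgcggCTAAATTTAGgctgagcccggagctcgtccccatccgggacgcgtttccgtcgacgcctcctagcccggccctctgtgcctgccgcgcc
Klf4: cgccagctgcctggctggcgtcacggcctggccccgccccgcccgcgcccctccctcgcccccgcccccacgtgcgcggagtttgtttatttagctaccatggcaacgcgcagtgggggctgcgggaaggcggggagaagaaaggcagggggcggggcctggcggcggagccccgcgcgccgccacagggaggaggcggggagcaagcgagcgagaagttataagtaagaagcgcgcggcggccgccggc

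The Klf2 match lies at chr8:72318944-72318953, with its last base 80 bases before the GENCODE start of the gene. Its exact letters were read from the Klf2 promoter itself, so that Klf2 holds them was fixed in advance. Of 32851 promoters 13 hold them, or 0.0396%, and no other member does. The outline, which these letters match, is held by 3.69% of promoters and among the members by Klf2 and Krit1. CACCC, the core of the sequence bound by KLF proteins, was sought on both strands, where its other strand reads GGGTG. Matches numbered 5 in the Heg1 promoter, 3 in 1 of 2 Ccm2 promoters and 1 each in those of Klf2 and Piezo1, with none in those of Klf4, Krit1, Pdcd10 and Map3k3, and 57.5% of all promoters hold at least 1. These matches describe letters and not binding, and their part in the members' levels was not tested.

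None of the 9 members passed limma's test at an adjusted p of 0.05, where 0.177% of the 12988 genes tested did, 0.123% as lower and 0.0539% as higher in conditional knockouts. Of the 7 genes called higher, 6 were listed at 0 in every control, which can be a failed estimate, and none of the 16 called lower held a 0. At an unadjusted p under 0.05 there were 2 members, Nos3 and Klf2, both lower, against 6.68% of all genes tested, with 4.37% lower and 2.31% higher. The libraries of both genotypes did not overlap for 5 of the 9 members, against 13.4% of all genes. Of the 5, Nos3, Klf2, Ccm2 and Map3k3 were lower in conditional knockout libraries, where 8.17% of all genes were, and Krit1 was higher, where 5.23% were. Among 23 general endothelial genes tested, described below, 14 were lower and 2 higher without overlap, so such separation was not particular to the members. Log2 fold changes, conditional knockout minus control on log2(FPKM + 1), were below 0 for 6 members and above 0 for 3, with a median of -0.18, and the median over all genes tested was -0.013.

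**Figure D1:**
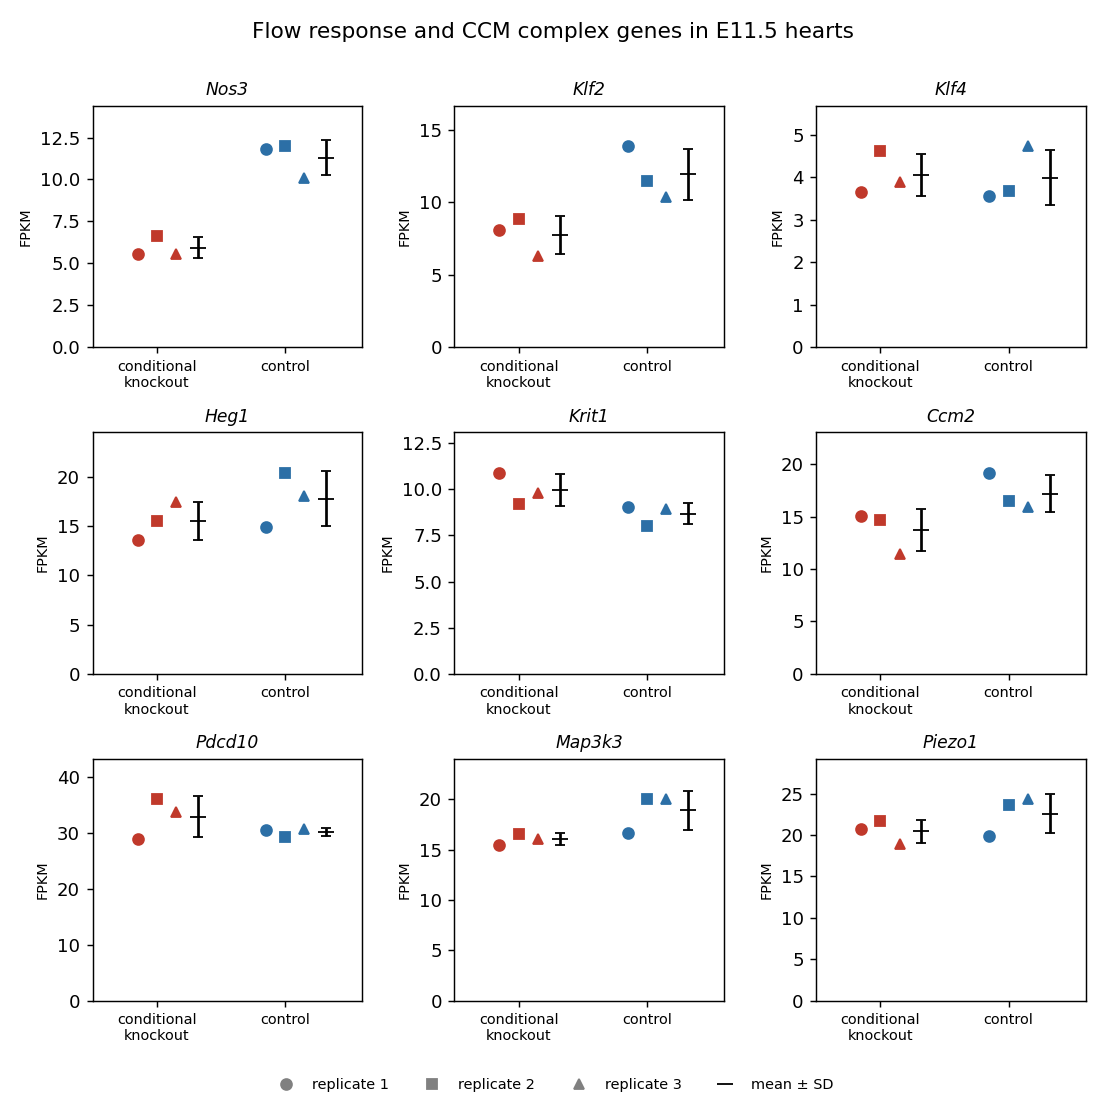
FPKM of the 9 members in each library (vertical axis from 0, a scale of its own per gene), conditional knockout left of control, with symbols for replicate numbers and the mean ± SD of 3 libraries beside them. Nos3 and Klf2 show the clearest separation, with conditional knockout libraries at 5.57 to 6.64 and 6.29 to 8.84 FPKM, while those of Klf4 lie within the same range as controls.

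Pdcd10 was the most abundant member and Klf4 the least in both genotypes. In conditional knockout libraries the mean FPKM ran from Pdcd10 at 32.9 over Piezo1 at 20.4, Map3k3 at 16.0, Heg1 at 15.5, Ccm2 at 13.8, Krit1 at 9.96, Klf2 at 7.74 and Nos3 at 5.93 to Klf4 at 4.05. In control libraries it ran from Pdcd10 at 30.2 over Piezo1 at 22.6, Map3k3 at 18.9, Heg1 at 17.8, Ccm2 at 17.2, Klf2 at 11.9, Nos3 at 11.3 and Krit1 at 8.67 to Klf4 at 4.0. Krit1 thus stood above Klf2 and Nos3 in conditional knockout hearts and below both in control hearts. Neighbours whose libraries overlapped were Map3k3 with Heg1, Heg1 with Ccm2 and Klf2 with Nos3 in both genotypes, and Piezo1 with Map3k3 in controls.

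Nos3, the synthase gene at the end of the pathway, differed most among the members. It lies on chromosome 5 from 24364810 to 24384474 (GRCm38, plus strand). Its level was 5.57, 6.64 and 5.58 FPKM in conditional knockout libraries, against 11.8, 12.0 and 10.1 FPKM in control libraries. Every conditional knockout library was thus below every control, and the mean was 5.93 ± 0.617 FPKM in conditional knockouts and 11.3 ± 1.03 FPKM in controls (SD, n = 3 each), a ratio of 0.525. The log2 fold change was -0.83 ± 0.11 (SE), with a 95% interval of -1.09 to -0.57, and the limma adjusted p was 0.0582, short of the threshold. Nos3 had the 25th smallest p of all genes tested, where 23 genes were called. Replicate 1 libraries of both genotypes stood apart from the others in the spacing of their low values, and within replicates 2 and 3 alone the log2 fold change was -0.76, with an adjusted p of 0.251. In whole hearts, fewer endothelial cells and less RNA per cell cannot be told apart.

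2 genes on the other strand share exon sequence with Nos3. The antisense transcript Gm15587 overlaps it by 1040 bases and stood at 0.183, 0.243 and 0.387 FPKM in conditional knockout libraries, against 0.643, 0.771 and 0.76 FPKM in controls. Atg9b, an autophagy gene, overlaps it by 294 bases and stood between 0.63 and 0.94 FPKM in conditional knockouts and between 0.899 and 1.3 FPKM in controls. The sources used here do not give the strand setting of the counting, so reads of these genes and of Nos3 cannot be told apart where they overlap. Both stood far below Nos3 in every library.

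Other genes of nitric oxide synthesis and its response showed no call. Of 10 genes listed for the synthase family and its partners, 8 were tested, none passed, 7 lay below 0 and the median log2 fold change was -0.07. Nos1 and Nos2, the neuronal and inducible synthase genes, were under the filter at means of 0.0686 and 0.182 FPKM in conditional knockouts and 0.0795 and 0.0374 FPKM in controls. Hsp90ab1, a chaperone gene and the most abundant of the list, had a log2 fold change of -0.13 ± 0.14 (SE). Nosip, a gene for a synthase-binding protein, had the lowest at -0.26 ± 0.24, and Cav1, for the caveolar protein that binds the synthase, the highest at 0.2 ± 0.1 (SE).

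Klf2, the flow-induced transcription factor, lies on chromosome 8 from 72319033 to 72321656 (plus strand). Its libraries stood at 8.08, 8.84 and 6.29 FPKM in conditional knockouts, against 13.9, 11.5 and 10.4 FPKM in controls, and did not overlap. The mean was 7.74 ± 1.31 FPKM in conditional knockouts and 11.9 ± 1.76 FPKM in controls (SD, n = 3 each), a ratio of 0.648. On the log2 scale the difference was -0.57 ± 0.15 (SE; 95% interval -0.92 to -0.22), with an adjusted p of 0.48 in limma, and within replicates 2 and 3 alone it was -0.5. The range within controls, 10.4 to 13.9 FPKM, was wider than the gap between the highest conditional knockout library, at 8.84 FPKM, and the lowest control. It was narrower than the difference of the group means.

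Klf4, its closest partner in the flow response, lies on chromosome 4 from 55527143 to 55532466 (minus strand) and gave no such pattern. It stood at 3.66, 4.61 and 3.88 FPKM in conditional knockout libraries, against 3.56, 3.68 and 4.74 FPKM in controls. The groups overlapped throughout, with means of 4.05 ± 0.499 FPKM in conditional knockouts and 4.0 ± 0.649 FPKM in controls (SD, n = 3 each). Their log2 fold change was 0.02 ± 0.13 (SE), with an adjusted p of 0.989 in limma, and its 95% interval of -0.29 to 0.33 leaves room for a change in either direction.

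Whether Klf2 and Klf4 differed from each other in their response was read from their ratio within each library, which no scaling of a library can move. Klf2 was 2.2, 1.92 and 1.62 times Klf4 in conditional knockout libraries, against 3.89, 3.13 and 2.2 times in controls. The ranges touched at conditional knockout replicate 1 and control replicate 3, and the exact two-sided permutation test gave p = 0.2, where 0.1 is the smallest that 3 against 3 libraries allow. Of 13 other KLF genes tested, none passed, 9 lay below 0 and the median log2 fold change was -0.06. Klf3, the most abundant of them, had 0.01 ± 0.11, Klf1, the erythroid factor gene, the lowest value at -0.32 ± 0.3, and Klf6 the highest at 0.13 ± 0.09 (SE).

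Klf2 and Klf4 are also raised by handling of tissue, as immediate early genes are. Of 11 immediate early genes tested, none passed and 8 lay below 0, with a median log2 fold change of -0.14. Their summed level over 13 genes was 88.5 to 122 FPKM in conditional knockouts and 102 to 136 FPKM in controls. In both genotypes replicate 3 had the lowest sum, as it had the lowest Klf2, and the part of handling in the Klf2 values was not tested.

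**Figure D2:**
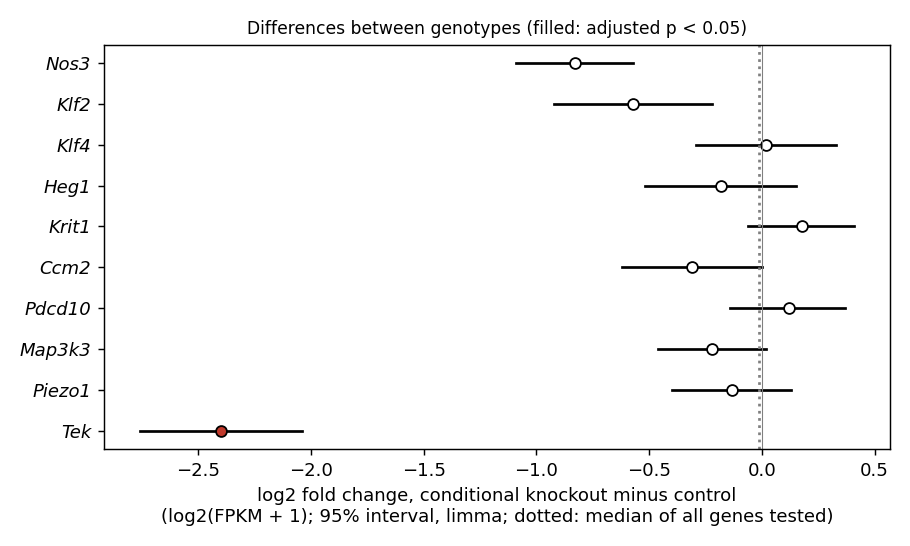
Log2 fold change of each member and of Tek (horizontal axis, conditional knockout minus control) with 95% intervals from limma over 3 libraries per genotype, filled where the adjusted p was under 0.05. Tek alone is filled, at -2.40, and the intervals of Nos3 and Klf2 lie below 0.

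Heg1, the transmembrane receptor that anchors the CCM complex at endothelial junctions, lies on chromosome 16 from 33684370 to 33771576 (plus strand). It stood at 13.6, 15.5 and 17.4 FPKM in conditional knockouts, against 14.9, 20.4 and 18.0 FPKM in controls. The groups overlapped, and replicate 1 was lowest in each. This gave a log2 fold change of -0.18 ± 0.14 (SE; 95% interval -0.52 to 0.15, limma adjusted p = 0.815).

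Krit1 encodes the subunit that binds HEG1 and the small GTPase RAP1, and lies on chromosome 5 from 3803184 to 3845564 (plus strand). It was the member with the highest log2 fold change, at 0.18 ± 0.1 (SE; limma adjusted p = 0.798). Its libraries stood at 10.9, 9.19 and 9.79 FPKM in conditional knockouts, against 9.05, 8.02 and 8.94 FPKM in controls. All conditional knockout libraries were above all controls, by a margin of less than the SD of either group.

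Ccm2, the scaffold that binds KRIT1 and MEKK3, lies on chromosome 11 from 6546887 to 6596744 (plus strand). It stood at 15.1, 14.7 and 11.4 FPKM in conditional knockouts, against 19.2, 16.5 and 15.9 FPKM in controls. The libraries did not overlap, and conditional knockout replicate 3 was the lowest. Means were 13.8 ± 2.01 FPKM in conditional knockouts and 17.2 ± 1.75 FPKM in controls (SD, n = 3 each). The difference on the log2 scale was -0.31 ± 0.13 (SE; 95% interval -0.62 to 0.0, unadjusted p = 0.0503 and adjusted p = 0.749 in limma).

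Pdcd10, whose product binds kinases of the GCKIII family, lies on chromosome 3 from 75516490 to 75556856 (minus strand). It stood at 28.9, 36.0 and 33.8 FPKM in conditional knockouts, against 30.5, 29.3 and 30.7 FPKM in controls. Conditional knockout replicate 1 was below all other libraries and replicates 2 and 3 above them. Its log2 fold change was 0.12 ± 0.11 (SE; 95% interval -0.14 to 0.37, limma adjusted p = 0.842).

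The subunits of the complex can be set against each other within a library. Krit1 was 0.722, 0.624 and 0.856 times Ccm2 in conditional knockouts, against 0.472, 0.485 and 0.563 times in controls, and these ranges did not overlap. The mean ratio was 0.734 ± 0.117 in conditional knockouts and 0.506 ± 0.0493 in controls (SD, n = 3 each), and the exact two-sided permutation test gave its smallest possible p of 0.1. Pdcd10 to Ccm2 ran from 1.92 to 2.95 in conditional knockouts and from 1.59 to 1.93 in controls, with an exact permutation p of 0.2. Pdcd10 to Krit1 ran from 2.66 to 3.92 in conditional knockouts and from 3.37 to 3.65 in controls, with an exact permutation p of 0.9. These were among 9 ratios computed within libraries, chosen after the values were seen. No p of this permutation test can pass 0.05 with 3 against 3 libraries.

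Map3k3 encodes MEKK3, the kinase that CCM2 restrains, and lies on chromosome 11 from 106084613 to 106155446 (plus strand). It stood at 15.5, 16.6 and 16.1 FPKM in conditional knockouts, against 16.7, 20.0 and 20.0 FPKM in controls. The groups did not overlap, but the highest conditional knockout and the lowest control library were close. Its log2 fold change was -0.22 ± 0.1 (SE; 95% interval -0.46 to 0.02, limma adjusted p = 0.772).

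Around these members, 18 of 19 listed partner genes of the CCM complex and the MEKK3 cascade were in the table under the listed symbol, and none passed. Of the 18, 13 lay below 0, and the median log2 fold change was -0.06. Rasip1, an endothelial RAP1 effector gene, had the lowest value at -0.59 ± 0.15 (SE; limma adjusted p = 0.4). Its libraries stood at 10.3, 9.56 and 7.95 FPKM in conditional knockouts, against 17.3, 14.0 and 12.4 FPKM in controls. Map3k2, for the related kinase MEKK2, had the highest value at 0.17 ± 0.14, and Cdc42, the most abundant, stood at -0.03 ± 0.2 (SE).

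Ccm2l, an endothelial paralog of Ccm2, was named after its values were seen. It stood at 5.05, 5.67 and 3.75 FPKM in conditional knockouts, against 6.95, 7.99 and 7.7 FPKM in controls (log2 fold change -0.57 ± 0.14 SE, limma adjusted p = 0.425). Between MEKK3 and the Klf genes, the kinase genes Map2k5 and Mapk7 had log2 fold changes of -0.04 ± 0.13 and -0.07 ± 0.12, and the factor genes Mef2a, Mef2c and Mef2d of 0.06 ± 0.11, -0.03 ± 0.11 and -0.12 ± 0.1 (SE). Ccm2l and Rasip1 were the 2 genes of this list of 18 at an unadjusted p under 0.05, where 6.68% of all genes tested were.

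Piezo1, the mechanosensitive channel gene, lies on chromosome 8 from 122481698 to 122551329 (minus strand). It stood at 20.7, 21.7 and 18.9 FPKM in conditional knockouts, against 19.9, 23.6 and 24.3 FPKM in controls, with overlapping groups. The log2 fold change was -0.13 ± 0.11 (SE; 95% interval -0.4 to 0.13, limma adjusted p = 0.823). Gm20388, a gene model on the other strand with no exon bases in common, stood at 4.03, 21.2 and 18.3 FPKM in conditional knockouts, against 0.0406, 25.4 and 23.7 FPKM in controls. Ctu2, a gene of transfer RNA modification also on the other strand, shares 2441 bases of exon with it and stood between 5.73 and 7.8 FPKM in conditional knockouts and between 7.0 and 7.68 FPKM in controls.

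Piezo1 is also expressed by red cells. Summed over 9 erythroid genes, the level was 7578 to 12753 FPKM in conditional knockouts and 8747 to 13400 FPKM in controls. The full erythroid list of 11 genes summed to 36264 to 55427 FPKM in conditional knockouts and 8747 to 13400 FPKM in controls, as it holds the embryonic globin genes Hba-x and Hbb-y. These stood at 11128 to 18708 and 17557 to 23965 FPKM in conditional knockouts, and every control lists them at 0. Both passed the test and are among the 7 genes called higher. An exact 0 for such genes can be a failed estimate, and the part of red cells in the Piezo1 values was not tested.

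Of 15 other mechanosensor genes tested none passed, 8 lay below 0 and 7 above, and the median log2 fold change was -0.01. Cdh5, the junctional cadherin gene that takes part in flow sensing, had both the highest mean level and the lowest value, at -0.71 ± 0.13 (SE; limma adjusted p = 0.189). Piezo2, the second Piezo channel gene, had the highest at 0.58 ± 0.29, with 4.81 FPKM in conditional knockout replicate 1 and 1.02 to 2.78 FPKM in all other libraries. The 5 genes at an unadjusted p under 0.05, all of them lower, were Pecam1, Kdr, Cdh5, Plxnd1 and Notch1, named after their values were seen. Of all genes tested 4.37% were lower at this p. All of the 5 but Notch1 are also in the general endothelial list described next.

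Of 23 general endothelial genes tested, 1 fell, 22 did not pass and 18 lay below 0, with a median log2 fold change of -0.35, where 53.2% of all genes tested lay below 0. At an unadjusted p under 0.05 there were 13 lower and 2 higher, against 4.37% and 2.31% of all genes tested. The 2 higher ones, named after their values were seen, were Robo4, a guidance receptor gene, at 2.69, 3.39 and 3.3 FPKM in conditional knockouts against 0.952, 1.8 and 1.75 FPKM in controls, and Sox17, an arterial transcription factor gene, at 1.83, 1.34 and 1.51 FPKM in conditional knockouts against 0.745, 0.763 and 0.903 FPKM in controls. Their limma adjusted p were 0.374 and 0.597. Sox17, at a mean of 0.804 FPKM in controls, passed the filter through its conditional knockout libraries. The gene called was Mmrn2. With 1 library left out, 1 gene of the list was called without control replicate 1 and none without any of the other 5 libraries. The list of 24 genes summed to 380 to 429 FPKM in conditional knockouts and 501 to 555 FPKM in controls. In the endocardial list of 11 genes, 5 fell and none rose, where 0.123% of all genes tested were called lower and 0.0539% higher. Its median was -0.92, with sums of 215 to 268 FPKM in conditional knockouts and 336 to 397 FPKM in controls. The lists were chosen with earlier results of these data known, so these counts and medians are a description only. The 5 were Npr3, a natriuretic peptide receptor gene, at -1.15, Plvap, a gene of endothelial diaphragms, at -1.22, Gpr126, an adhesion receptor gene, at -1.01, Tmem100 at -1.35 and Ednrb, an endothelin receptor gene, at -1.0 on the log2 scale. With 1 library left out, 1 to 3 endocardial genes were called lower, as given under the processing alternatives, and with the replicate number as a block 4 were.

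An endothelial level was taken as the geometric mean of FPKM + 1 over the 23 genes. It was 13.0, 13.5 and 12.4 in conditional knockout libraries, against 15.4, 16.4 and 15.3 in controls, a ratio of means of 0.826. Nos3 per unit of this level was 0.427, 0.491 and 0.451 in conditional knockouts, against 0.763, 0.73 and 0.659 in controls, still without overlap and with a ratio of 0.636. Klf2 per unit was 0.619, 0.653 and 0.509 in conditional knockouts, against 0.901, 0.701 and 0.68 in controls, with no overlap and a ratio of 0.781. For Klf4 it was 0.281, 0.341 and 0.313 in conditional knockouts and 0.231, 0.224 and 0.309 in controls, with overlap. Set against this level, the ratio of conditional knockout to control was 1.22 for Klf4, 1.06 for Heg1, 1.39 for Krit1, 0.964 for Ccm2, 1.32 for Pdcd10, 1.03 for Map3k3 and 1.1 for Piezo1. Libraries did not overlap for Krit1 and Pdcd10, both higher in conditional knockouts, and overlapped for the other 5. The level itself was lower in conditional knockouts, so dividing by it raises the ratio of every member. Before division the ratio of means was 1.15 for Krit1, without overlap, and 1.09 for Pdcd10, whose libraries overlapped. The exact permutation p was 0.1 for Nos3, Klf2, Krit1 and Pdcd10, the smallest possible, and 0.2 to 0.7 for the rest, over 9 members compared.

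Set against Cdh5 alone, a gene that was lower by more than the list, the separation was lost. Nos3 to Cdh5 was 0.204, 0.196 and 0.186 in conditional knockouts, against 0.263, 0.212 and 0.203 in controls, with an exact permutation p of 0.2. Klf2 to Cdh5 was 0.296, 0.261 and 0.209 in conditional knockouts, against 0.311, 0.204 and 0.21 in controls, with an exact permutation p of 0.9. The separation of Nos3 and Klf2 thus depended on the measure taken, and which measure stands for the amount of endothelium was not tested. No member was set against the summed FPKM of the general endothelial list, or against the endocardial list. The endocardial list, chosen with earlier results of these data known, had a median log2 fold change of -0.92, beside -0.83 for Nos3 and -0.57 for Klf2.

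**Figure D3:**
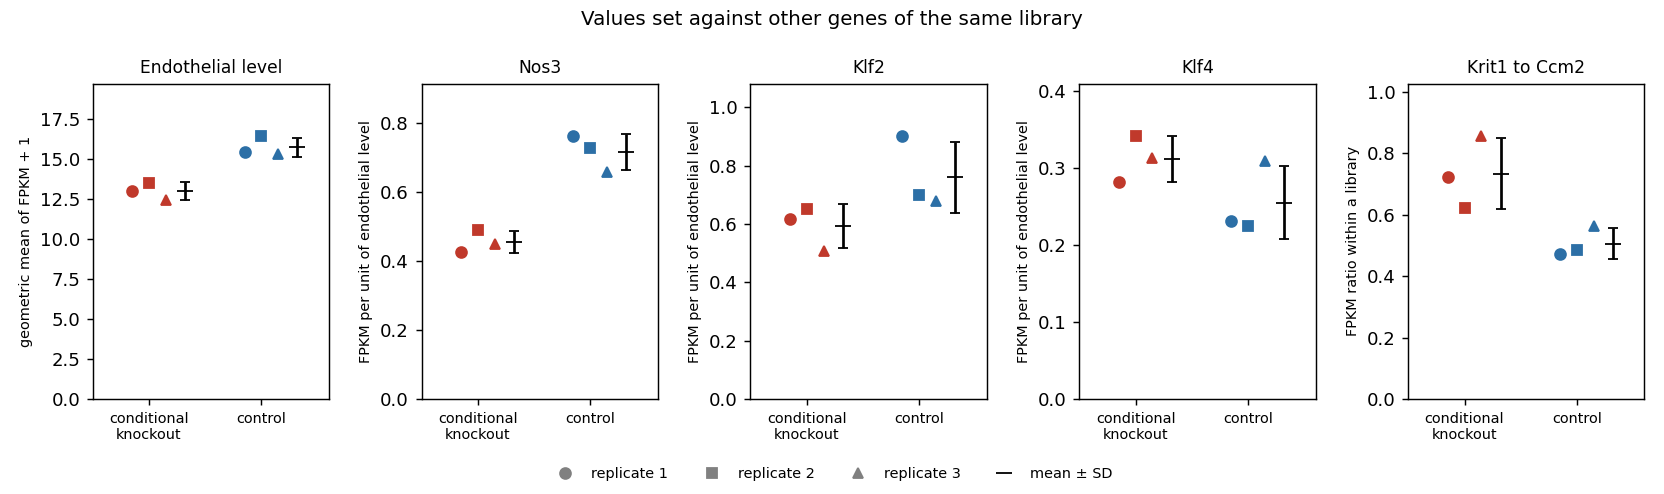
Endothelial level, Nos3, Klf2 and Klf4 per unit of that level, and the ratio of Krit1 to Ccm2 in each library (vertical axes from 0), conditional knockout left of control, with the mean ± SD of 3 libraries. Nos3 per unit lies at 0.427 to 0.491 in conditional knockouts, below all controls, and Krit1 to Ccm2 lies above all controls.

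Downstream of the Klf factors, genes known to be raised by flow or by KLF2 and KLF4 held 1 call. Of 17 listed genes 15 were tested, 1 fell, none rose and 14 did not pass, with 11 below 0 and a median log2 fold change of -0.2. Gja4, the gene of the arterial connexin 37, stood at 6.09, 4.3 and 4.15 FPKM in conditional knockouts, against 16.8, 16.3 and 12.6 FPKM in controls. It fell by 1.48 ± 0.16 on the log2 scale (SE, limma adjusted p = 0.0232). The call of Gja4 ended in the fits that left out conditional knockout replicate 2 (adjusted p = 0.1) or 3 (0.122) or control replicate 1 (0.0987) or 2 (0.158), in replicates 2 and 3 alone (0.0557) and with no filter on low values (0.111).

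Other targets are named after their values were seen. Of the 15 tested, libraries did not overlap for 6 genes that were lower and 2 that were higher. Over all genes tested the shares were 8.17% and 5.23%. In the general endothelial list 14 of 23 genes were lower and 2 higher without overlap. Thbd, the thrombomodulin gene and a classical KLF2 target, stood at 11.8, 8.51 and 9.99 FPKM in conditional knockouts, against 9.24, 8.34 and 8.88 FPKM in controls, with a log2 fold change of 0.17 ± 0.12 (SE, limma adjusted p = 0.815). Tgfbr3, a betaglycan gene, was at -0.43 ± 0.11, S1pr1, a lipid receptor gene, at -0.26 ± 0.1, and Aqp1, a water channel gene, at -0.36 ± 0.13 (SE), with no overlap of libraries and limma adjusted p of 0.425, 0.742 and 0.742. The 2 higher genes were Cyp1b1, a cytochrome gene, at 2.72, 2.24 and 3.23 FPKM in conditional knockouts against 2.05, 1.14 and 1.91 FPKM in controls (log2 fold change 0.47 ± 0.18 SE, limma adjusted p = 0.742), and Cav1, given above, with an adjusted p of 0.778.

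Genes that flow or KLF factors are known to lower showed the opposite balance. Of 10 listed genes 9 were tested, 1 rose, none fell and 8 did not pass, and 7 lay above 0 with a median log2 fold change of 0.46. Esm1, the endocan gene of sprouting endothelium, stood at 2.29, 2.34 and 2.4 FPKM in conditional knockouts, against 0.335, 0.433 and 0.401 FPKM in controls, and rose by 1.27 ± 0.14 on the log2 scale (SE, limma adjusted p = 0.0219). Its controls lay under 1 FPKM, so it passed the filter, at a mean of 1.37 FPKM, only through the conditional knockout libraries. With no filter on low values its limma adjusted p was 0.0176. Leaving out any 1 library ended the call of Esm1. Its adjusted p was then 0.0943, 0.108 and 0.155 for conditional knockout replicates 1, 2 and 3 left out in turn, and 0.056, 0.135 and 0.0879 for control replicates 1, 2 and 3. With the replicate number as a block it was 0.0921, and in replicates 2 and 3 alone 0.122. The list also holds markers of sprouting tip cells. Its count above 0 and its median include Esm1 and Angpt2, both of which passed the filter only through the conditional knockouts.

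5 tested genes of this list had an unadjusted p under 0.05, all of them higher and without overlap. Of all genes tested 2.31% were higher at this p, and 5.23% were higher without overlap. Besides Esm1 they were Edn1, the endothelin 1 gene, at 10.0, 13.9 and 9.92 FPKM in conditional knockouts against 5.66, 6.08 and 6.94 FPKM in controls, and Vcam1, an adhesion molecule gene, at 32.3, 35.3 and 36.5 FPKM in conditional knockouts against 23.0, 25.0 and 26.8 FPKM in controls. The others were Pdgfb, a growth factor gene, at 0.79 ± 0.16, and Angpt2, a ligand gene of Tie2, at 0.49 ± 0.17 (SE). Angpt2 averaged 1.57 FPKM in conditional knockouts and 0.833 FPKM in controls, so it too passed the filter through the conditional knockouts. The shares over all genes are thus no fair measure for Esm1 and Angpt2. The limma adjusted p were 0.233, 0.324, 0.245 and 0.718 for Edn1, Vcam1, Pdgfb and Angpt2, so none of these 4 passed.

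**Figure D4:**
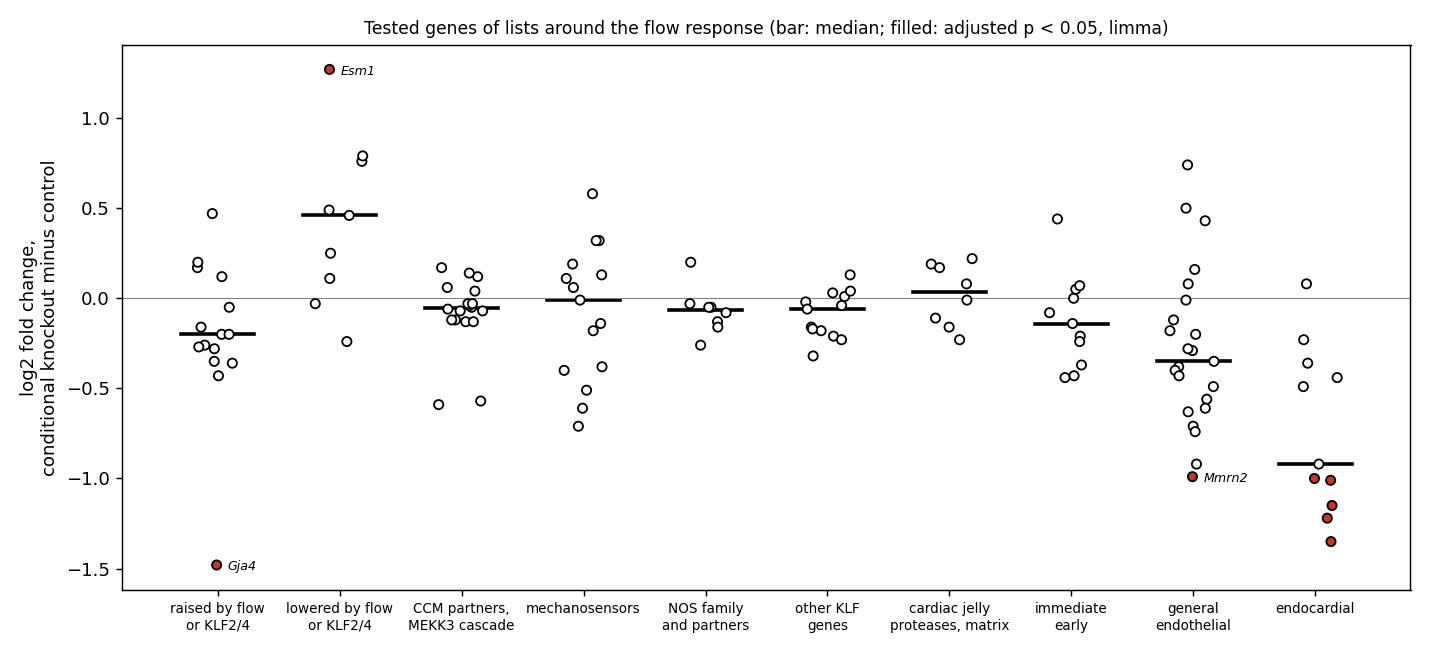
Log2 fold change (vertical axis, conditional knockout minus control) of each tested gene in 10 lists, with the median as a bar and filled points at an adjusted p under 0.05 in limma. Gja4 and Esm1 are the called genes among the flow targets, whose medians are -0.2 and 0.46, and the CCM and MEKK3 list lies around -0.06. The median of 0.46 includes Esm1 and Angpt2, which passed the filter only through the conditional knockouts.

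In the mouse endocardium the MEKK3 axis also controls proteases that clear the cardiac jelly. Of 9 genes listed for these proteases and their matrix 8 were tested, none passed, 4 lay below 0 and 4 above, and the median log2 fold change was 0.04. Vcan, the versican gene of the jelly, was the most abundant and had the highest value, at 0.22 ± 0.16, and Hapln1, a link protein gene, had the lowest, at -0.23 ± 0.21 (SE). Adamts5, a versican protease gene that depends on MEKK3 in the mouse heart and was named after its values were seen, stood at 1.87, 1.36 and 1.78 FPKM in conditional knockouts, against 1.32, 1.76 and 1.97 FPKM in controls. Its related protease gene Adamts4 was under the filter, at means of 0.518 FPKM in conditional knockouts and 0.539 FPKM in controls.

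Genes most like each endothelial member were sought over the 6 libraries among the 9273 genes that average 5 FPKM or more, by Pearson's r of log2(FPKM + 1). For Nos3 they were Slc22a23 (r = 0.997), Ggta1 (r = 0.996) and Rps6ka2 (r = 0.995). For Klf2 they were Aldh4a1 (r = 0.994), Arpc1b (r = 0.993) and Abhd14a (r = 0.993). Heg1 was nearest to Trim27 (r = 0.988), Elf4 (r = 0.986) and Sort1 (r = 0.985), and Klf4 to Ttc4 (r = 0.988), Zfp191 (r = 0.986) and the precursor of mmu-mir-6357 (r = 0.977). The last was listed at 0 in every library except conditional knockout replicate 2 (20.6 FPKM) and control replicate 3 (27.2 FPKM), so its r rests on those. With 6 points that share libraries and so many genes compared, these values are a description only. Slc22a23, a transporter gene, stood at 4.79, 5.65 and 4.56 FPKM in conditional knockouts, against 9.93, 10.9 and 8.86 FPKM in controls. Its ratio of 0.506 lies near the 0.525 of Nos3 because it was picked for its likeness over these same libraries.

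Markers of the other cells of a heart sample were measured beside the members. Summed levels were 9898 to 15002 FPKM in conditional knockouts and 14034 to 14837 FPKM in controls for 8 cardiomyocyte genes, and 148 to 157 FPKM in conditional knockouts and 144 to 160 FPKM in controls for 5 epicardial genes. For 5 cushion mesenchyme genes they were 134 to 213 FPKM in conditional knockouts and 114 to 217 FPKM in controls. For 5 liver genes they were 2.58 to 228 FPKM in conditional knockouts and 23.7 to 85.7 FPKM in controls. For 5 macrophage genes they were 7.23 to 7.78 FPKM in conditional knockouts and 5.03 to 6.21 FPKM in controls, without overlap. None of these lists held a called gene, and their part in the members' values was not tested. Eif2s3y, a Y-linked gene, stood at 34.1, 52.8 and 55.6 FPKM in conditional knockouts, against 17.7, 20.0 and 41.0 FPKM in controls (limma adjusted p = 0.729), and the part of embryo sex in the members' values was not tested.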

How the data were processed

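The deposited table holds FPKM values that the authors made for 38918 genes. HTSeq, Cuffdiff, Cufflinks (2.2.1) and TopHat2 (2.0.9) are listed in the submitters' processing notes without their roles, together with the mm10 build. Annotation and strand setting are unstated there. Depth is unknown: among genes under 0.3 FPKM, ratios between libraries piled up in 5.89% to 16.2% of genes for the 6 pairs among replicates 2 and 3, and in 1.08% to 1.41% for the 8 pairs with 1 replicate 1 library. The pair of both replicate 1 libraries had 3.12%, so replicate 1 stood apart in both genotypes, and no reads were recovered. A scaling by median ratios gave factors of 0.989 to 1.02.

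On a log2(FPKM + 1) scale, the 12988 genes averaging 1 FPKM or more were tested with limma 3.58.1 in R 4.3.3 (intensity trend, no block, Benjamini-Hochberg adjustment, threshold 0.05), tested on simulated data. This scale understates changes of low genes. Errors are SD over 3 libraries or moderated SE. Ratios were tested by exact permutation in scipy 1.17.1. Positions are from GENCODE M21 (GRCm38), in which 37607 identifiers were found, and promoters from RefSeq. Genes named are the members, up to 4 called genes per list or else its most abundant and extreme genes, and those most like a member. The members and lists were chosen with earlier results of these data known. Alternatives were other pseudocounts, filters and scalings, a replicate block, and fits without libraries.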

Additional observations from a re-analysis of the deposited data

How the results depend on the processing

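No member passed limma's threshold under any of the 15 alternatives run, and the counts of members called lower and higher were 0 in each. Nos3 came nearest, with an adjusted p between 0.0974 and 0.338 and a log2 fold change between -0.9 and -0.78 when single libraries were left out. Under the 9 alternatives of other kinds these lay between 0.0508 and 0.251 and between -0.92 and -0.76. For Klf2 the log2 fold change lay between -0.66 and -0.44 without any 1 library. Klf4 lay between -0.06 and 0.12 and turned below 0 when conditional knockout replicate 2 (-0.06), control replicate 1 (-0.04) or control replicate 2 (-0.02) was left out, and the cause was not tested. The other members kept their direction, but their size moved when single libraries were left out. Heg1 lay between -0.3 (control replicate 1 left out) and -0.08 (control replicate 2), Ccm2 between -0.38 and -0.19 (conditional knockout replicate 3), and Pdcd10 between 0.05 and 0.2 (conditional knockout replicates 2 and 1). Piezo1 lay between -0.22 (control replicate 1) and -0.08, Krit1 between 0.12 and 0.23, and Map3k3 between -0.3 and -0.17. At a minimum of 5 FPKM Klf4 was left out.

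Over all genes, 16 were called lower and 7 higher, 6 of the 7 with every control at 0. The lower count was 7 with no filter on low values, where more genes were tested, 8 within replicates 2 and 3 alone, and 4 to 9 without any 1 library. The higher count was 6 to 11 without any 1 library. Tek was at -2.39 within replicates 2 and 3, with an adjusted p of 0.0546, fewer libraries being used. Endocardial calls numbered 5, and 2, 1 and 1 without conditional knockout replicates 1, 2 and 3 and 3, 1 and 2 without control replicates 1, 2 and 3.

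The correlation of same-numbered libraries in their deviation from group means was 0.19 in replicate 1, 0.031 in replicate 2 and 0.23 in replicate 3 over all 12988 tested genes. Differently numbered libraries there correlated at -0.23 to 0.056. Among the 12805 genes above 0 in every library same-numbered libraries correlated at 0.27, 0.11 and 0.44, and differently numbered libraries at -0.39 to 0.095. Same-numbered libraries thus correlated above all others once genes with a 0 were left out, and replicate 2 did not with them included. The labels give no shared batch or day, and the design without a block was kept. With the replicate block 11 genes were lower and 6 higher, the adjusted p of Nos3 was 0.0604 and that of Klf2 0.219, Esm1 lost its call (0.0921), and the endocardial list held 4 calls. Depth is unknown, which limits what can be said of genes near 1 FPKM.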
